A study of Mus musculus with 15 samples.

Results

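The core clock and its direct output genes were followed through kidney and lung fibrosis and antibody treatment, as 10 genes chosen by symbol (*Per1*, *Per2*, *Per3*, *Cry1*, *Clock*, *Dbp*, *Tef*, *Nr1d1*, *Nr1d2* and *Ciart*) out of the 56748 genes of the deposited count table. All 10 were found, and all 10 passed the filter on low counts in kidney and in lung. In the clock of mammalian cells, CLOCK and its partner BMAL1 (gene *Arntl*) bind E-boxes and activate the *Per* and *Cry* genes, whose proteins then repress them, and a second loop runs through the REV-ERB receptors (*Nr1d1* and *Nr1d2*), which repress *Arntl*. The same activators drive *Dbp* and *Tef*, which encode PAR-domain bZIP factors that act on D-boxes, and *Ciart*, which encodes a further repressor of CLOCK and BMAL1. Their transcripts cycle over the day in kidney and lung, with *Dbp*, *Nr1d1* and *Ciart* in one phase and *Arntl* and *Nfil3* in the opposite one, and *Per1* also responds directly to glucocorticoids. The time of day at which tissue was taken, and whether it was matched between groups, is not given in the sources used here.

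RNA was sequenced from wild-type male C57Bl/6 mice in 5 groups of 3 libraries each. WTK kidneys came from mice aged 10 to 12 weeks that were given the vehicle in place of folic acid. Their labels name no antibody, while the study's text speaks of antibody or IgG after vehicle too, so whether they received IgG is not settled by the sources used here. IgGK and LepK kidneys came from mice of the same age that received 1 dose of folic acid at 200 mg/kg, which injures the tubules, and were then treated for 21 days from day 1 with 10 mg/kg of either LepAb, an antibody that neutralizes leptin, or control IgG, with tissue taken on day 28. IgGL and LepL lungs came from mice aged 12 weeks that received bleomycin at 1.5 units/kg into the trachea, which injures the alveoli, and then IgG or LepAb at the same dose for 14 days from day 1, with tissue taken on day 14. Lungs without bleomycin were not analysed here. Each library was taken as 1 mouse, the unit that the study's legends give for the lung sequencing. The labels themselves number the samples of a group without naming mice.

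Total counts ran from 25913969 to 38924788 per library, and each of the 10 genes had between 115 and 20091 counts in every library. Counts were scaled by TMM factors within each organ and are given as normalized CPM, of which 1 count was worth 0.0252 to 0.0415. The 12 proximal tubule markers summed to between 13045 and 54330 CPM in kidney, and the 7 alveolar type 2 markers to between 6785 and 25123 CPM in lung, so the organs matched their labels. Of the IgGK libraries, replicates 1 and 2 stood apart in markers of adrenal cortex, which summed to 641 and 823 CPM there, to 17.2 CPM in IgGK replicate 3 and to at most 8.89 CPM in the WTK and LepK libraries. Skeletal muscle markers stood apart in lung, with 217 to 761 CPM in IgGL and 798 to 1811 CPM in LepL against at most 2.49 CPM in kidney.

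The promoters were read for the motifs through which the clock acts, since several of the 10 genes were called in the same direction. RefSeq promoters of mouse build GRCm38.p6 (250 bases before the start and 50 after it) were matched for 9 of the 10 genes with 13 promoters, and *Per2* had no entry. The E-box CACGTG, with the variant CACGTT, and the D-boxes TTATGCAA and TTATGTAA were searched on both strands, as were TAGGTCA and TGGGTCA, the end of the element read by REV-ERB receptors. Of the 7 promoters with a match, 6 are shown as a stretch before the start, 5′ to 3′ in the direction of the gene, to let the number and spacing of the E-boxes and D-boxes be compared between genes; that of *Nr1d1*, which held only the E-box variant, is not shown. Capitals mark the matches.
Ciart (chr3:95882239-95882358, minus strand): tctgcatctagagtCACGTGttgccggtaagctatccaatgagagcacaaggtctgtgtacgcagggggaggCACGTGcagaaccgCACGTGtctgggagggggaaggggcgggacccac
Per1 (chr11:69098769-69098948, plus strand): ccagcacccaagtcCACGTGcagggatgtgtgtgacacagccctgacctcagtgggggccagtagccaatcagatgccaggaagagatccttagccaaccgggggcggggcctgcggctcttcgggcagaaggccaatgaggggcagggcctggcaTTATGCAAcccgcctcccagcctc
Cry1 (chr10:85185055-85185154, minus strand): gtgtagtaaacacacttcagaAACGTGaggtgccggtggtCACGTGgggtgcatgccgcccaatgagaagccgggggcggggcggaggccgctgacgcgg
Per3 (chr4:151044786-151044885, minus strand): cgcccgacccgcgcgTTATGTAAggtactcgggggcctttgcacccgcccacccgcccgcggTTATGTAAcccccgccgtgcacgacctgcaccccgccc
Tef, upstream start (chr15:81802503-81802602, plus strand): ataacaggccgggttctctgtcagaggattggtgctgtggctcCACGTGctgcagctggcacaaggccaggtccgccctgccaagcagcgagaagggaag
Tef, downstream start (chr15:81811244-81811343, plus strand): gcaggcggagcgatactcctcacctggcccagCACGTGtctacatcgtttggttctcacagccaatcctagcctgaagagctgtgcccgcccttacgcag
*Ciart* held the E-box 3 times, its first bases lying 116, 58 and 44 bases before the start. *Per1* held it 166 bases before its first start and a D-box 24 bases before it, and had no match at its second start. *Per3* held the D-box TTATGTAA 205 and 158 bases before its start and no E-box. *Cry1* held the E-box 60 bases before its start and, 79 bases before it, the variant on the opposite strand, and each of the *Tef* starts had an E-box of its own. CACGTG occurred in 5 of the 13 promoters and in 7.15% of the 32851 promoters of the table. CACGTT occurred in 2 of the 13 (4.68% of all), here in *Cry1* and, 28 bases before the start, in *Nr1d1*. TTATGCAA and TTATGTAA occurred in 1 promoter each (0.743% and 0.938% of all). TAGGTCA (2.61% of all) and TGGGTCA (3.98% of all) occurred in none. The promoters of *Dbp*, *Nr1d2* and *Clock* held none of these 6 motifs in this window. A match is a string of letters, and no binding was measured.

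Levels between genes were compared per gene length, as FPKM values from the deposited table. In the vehicle kidney *Tef* was highest of the 10, with 74.5 ± 1.62 FPKM in WTK (SD, n = 3), followed by *Dbp* with 41.7 ± 1.43, *Nr1d2* with 25.8 ± 1.12 and *Nr1d1* with 21.9 ± 1.43, and none of these 4 overlapped a neighbour. *Per2* (11.996 ± 0.563 FPKM) and *Ciart* (11.7 ± 1.05 FPKM) could not be told apart in WTK. *Per1* and *Per3* came next with 9.80 ± 0.924 and 8.06 ± 0.408 FPKM, and the core components *Clock* and *Cry1* were lowest, with 2.44 ± 0.139 and 1.64 ± 0.285 FPKM. The order was another one in the injured lung with IgG. There *Per1* led with 22.8 ± 3.85 FPKM in IgGL and overlapped *Tef* (16.7 ± 7.18 FPKM), while *Dbp* had 3.12 ± 3.05 FPKM and overlapped *Per3* (2.98 ± 1.79), *Ciart* (3.26 ± 1.18), *Clock* (4.34 ± 0.752), *Cry1* (6.33 ± 1.83) and *Per2* (6.43 ± 0.809). In LepL, *Tef* (31.5 ± 7.53 FPKM), *Nr1d1* (23.0 ± 6.58) and *Nr1d2* (22.0 ± 3.23) led by mean and overlapped one another. *Dbp* (14.3 ± 5.29 FPKM) overlapped *Nr1d1* and *Nr1d2* there, and *Per1* (14.8 ± 2.15) overlapped *Nr1d1*. Organ and injury model go together in these samples, so a difference in level between kidney and lung cannot be told apart from one between the models.

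**Figure D1:**
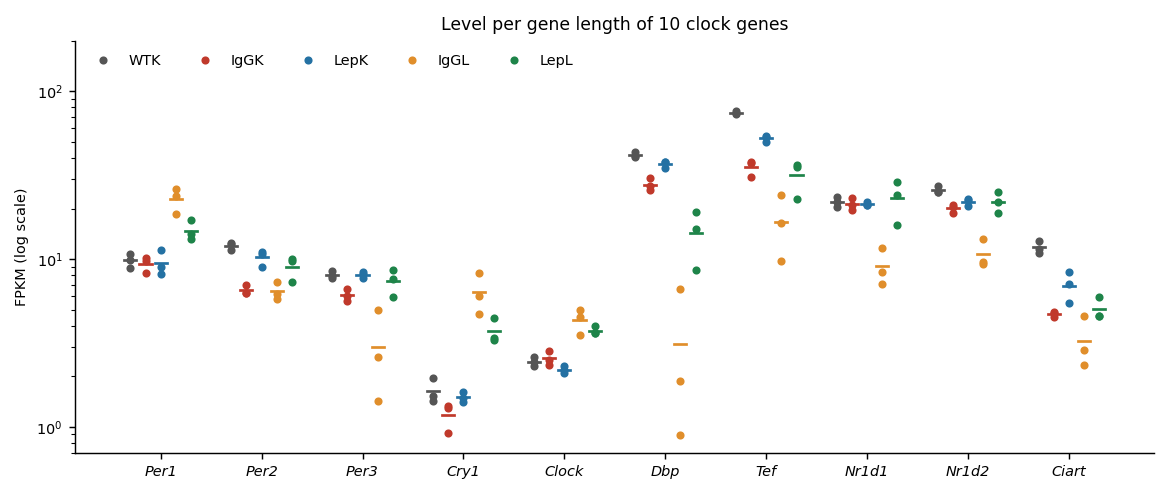
Level per gene length (FPKM, log axis) of the 10 clock genes in each library (points) with the mean of 3 libraries (bar), by group. *Tef* stood highest in WTK at 74.5 FPKM, and the IgGL libraries spread *Dbp* from 0.892 to 6.59 FPKM.

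The first comparison asked what folic acid injury did to the clock genes in kidney. Output genes and some of the repressors were lower in IgGK than in WTK, whereas *Per1*, *Nr1d1* and *Clock* overlapped between the groups. Of the 10 genes, 4 were called lower and none higher, where a call needs an adjusted p under 0.05 from edgeR and a log2 fold change beyond 0.5 in size. Of all 19593 genes tested, 37.3% were called and 15.6% were called lower. The libraries of IgGK lay wholly below those of WTK for 7 of the 10, and 62.6% of all genes had no overlap in either direction. The median log2 fold change was -0.40 over the 10 genes and 0.04 over all genes tested.

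Among the repressors, *Per2* had 86.7, 80.4 and 87.7 normalized CPM in WTK, 45.6, 45.5 and 51.2 in IgGK and 78.8, 63.7 and 76.4 in LepK. The IgGK libraries were the lowest 3 of the 9, with no overlap on either side. From WTK to IgGK, *Per2* fell by 0.84 on the log2 scale (edgeR, adjusted p = 4.4e-06, standard error 0.09), to 0.558 of its WTK level. *Per3* had 90.1, 92.1 and 98.7 CPM in WTK, 71.8, 67.0 and 79.6 in IgGK and 94.6, 89.8 and 97.8 in LepK. It passed the adjusted p (0.00114) but not the fold threshold, with a log2 fold change of -0.36. *Per1*, by contrast, held 60.1 to 72.9 CPM in WTK, 57.4 to 70.8 in IgGK and 55.9 to 77.9 in LepK, with overlap in each pair of groups and a log2 fold change of -0.03 (95% interval -0.29 to 0.23). *Cry1* was the least expressed of the 10 in kidney, at 7.93, 5.73 and 6.17 CPM in WTK, 3.79, 5.49 and 5.38 in IgGK and 5.99, 5.77 and 6.57 in LepK. Its log2 fold change of -0.43 did not pass (standard error 0.19, adjusted p = 0.0803 from edgeR), although its groups did not overlap.

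*Ciart*, the further repressor, had the lowest fold of the 10. Its values were 29.7, 31.6 and 35.1 CPM in WTK, 13.5, 12.7 and 13.3 in IgGK and 19.4, 15.02 and 23.1 in LepK. The 3 groups did not overlap, with WTK highest and LepK between the others. On the log2 scale *Ciart* fell by 1.29 from WTK to IgGK (standard error 0.13, adjusted p = 4.76e-06 from edgeR).

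The PAR-domain bZIP factors moved the same way. *Tef* had 705, 697 and 725 CPM in WTK, 363, 302 and 372 in IgGK and 509, 475 and 521 in LepK, and the 3 groups again did not overlap. On the log2 scale *Tef* fell by 1.04 from WTK to IgGK (standard error 0.08, adjusted p = 5.91e-07 from edgeR). *Dbp* had 147, 149 and 156 CPM in WTK, 113, 95.6 and 101 in IgGK and 127, 138 and 139 in LepK, and fell by 0.55 on the log2 scale (standard error 0.07, adjusted p = 3.81e-05 from edgeR). *Hlf*, the remaining factor of this family and not one of the 10, had 187, 182 and 203 CPM in WTK and 67.2, 53.9 and 72.0 in IgGK, a fall by 1.57 on the log2 scale (adjusted p = 2.23e-07 from edgeR).

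The REV-ERB receptors did not move together. *Nr1d1* had 76.6, 87.0 and 81.1 CPM in WTK, 87.7, 74.9 and 80.2 in IgGK and 78.4, 82.5 and 78.6 in LepK, 1 range for all 3 groups. Its log2 fold change in IgGK against WTK was -0.01, with a 95% interval from -0.17 to 0.15. *Nr1d2* had 165, 177 and 164 CPM in WTK, 137, 126 and 141 in IgGK and 147, 137 and 151 in LepK, and its log2 fold change of -0.32 passed the adjusted p (0.00128) alone. *Clock*, the activator, had 38.5 to 43.0 CPM in WTK and 39.8 to 48.1 in IgGK, with a log2 fold change of 0.10 (95% interval -0.08 to 0.28). On the adjusted p alone, 6 of the 10 genes passed, against 53.1% of all genes.

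**Figure D2:**
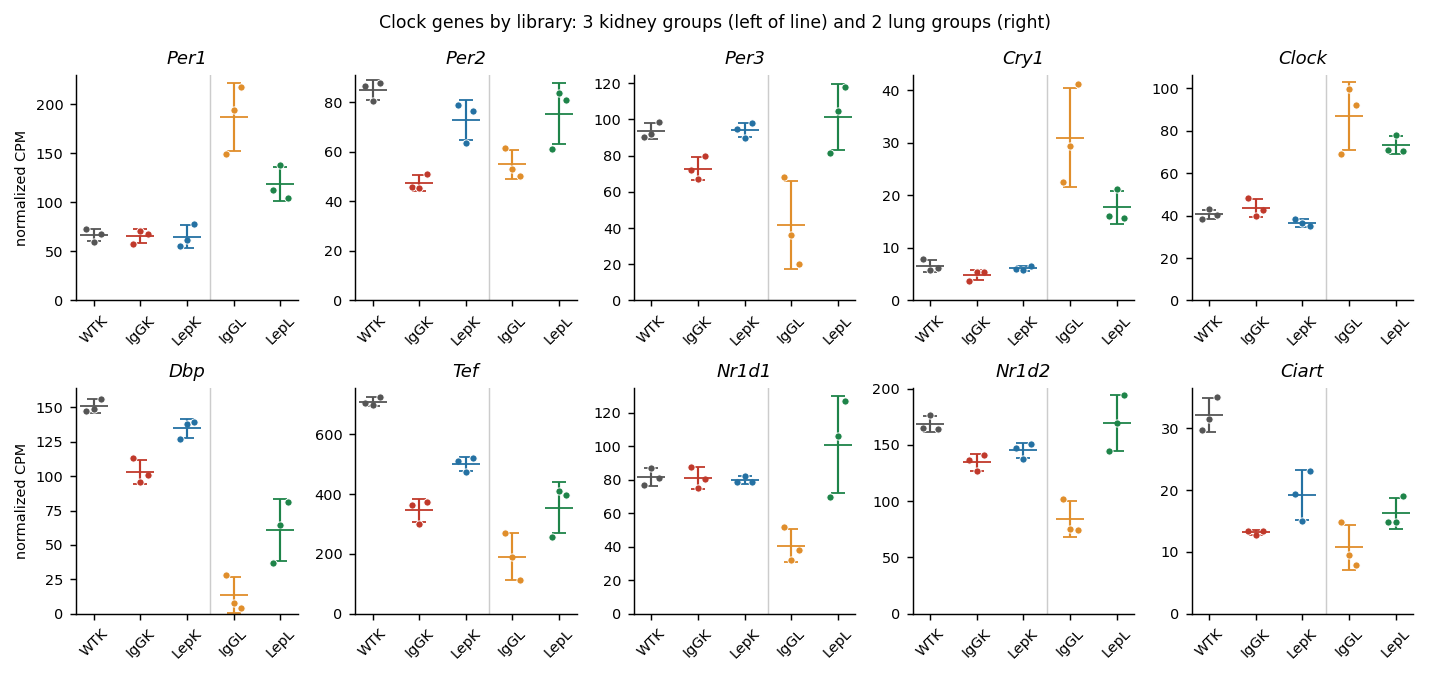
Normalized CPM of each of the 10 clock genes in every library (points), with the mean and SD of 3 libraries, for the kidney groups WTK, IgGK and LepK and the lung groups IgGL and LepL; each vertical axis starts at 0, and kidney and lung were normalized apart. *Tef* had 302 to 372 CPM in IgGK and 475 to 521 in LepK, and *Dbp* in lung had 3.96 to 28.3 in IgGL and 36.8 to 81.6 in LepL.

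The second comparison asked whether LepAb altered these levels in the injured kidney. *Per2*, *Tef* and *Ciart* were higher in LepK than in IgGK, and none was called lower. These 3 called genes of 10 stand against 10.4% of all genes called and 4.38% called higher. *Per2* was higher by 0.62 on the log2 scale (standard error 0.09, adjusted p = 0.000638 from edgeR), *Tef* by 0.54 (0.08, adjusted p = 0.00102) and *Ciart* by 0.54 (0.13, adjusted p = 0.0138). *Dbp* and *Per3* passed the adjusted p alone, with log2 fold changes of 0.38 and 0.37, so that 5 of the 10 passed it against 20.5% of all genes. The LepK libraries lay above the IgGK libraries for 6 genes and below them for *Clock* (38.5, 36.5 and 35.0 CPM in LepK), and 37.4% of all genes had no overlap. *Clock* had a log2 fold change of -0.25 with an adjusted p of 0.0537 from edgeR. *Per1* (-0.01) and *Nr1d1* (-0.02) had log2 fold changes near 0 and 95% intervals from -0.27 to 0.25 and from -0.18 to 0.14.

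In LepK against WTK, *Ciart* was lower (log2 fold change -0.75, standard error 0.13) with an adjusted p of 0.000796 from edgeR. It was the 1 gene of 10 called, against 22.5% of all genes called and 7.3% called lower. *Tef* lay just inside the fold threshold with a log2 fold change of -0.498 and an adjusted p of 0.000492. *Per3* had a log2 fold change of 0.01 (95% interval -0.16 to 0.17) and *Dbp* of -0.16 (95% interval -0.32 to -0.01, adjusted p = 0.0947 from edgeR). The 3 kidney comparisons share their libraries, so the lower values in IgGK enter the first and the second of them alike.

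The kidney values depend on the scaling. With library size alone in place of TMM, the median of all genes on the log2 scale moved to 0.48 for IgGK against WTK and to -0.19 for LepK against IgGK, and *Per1*, *Per3*, *Cry1*, *Nr1d1* and *Nr1d2* then had log2 fold changes above 0 in the first of these. Under that scaling edgeR called 3 genes in IgGK against WTK (*Tef* and *Ciart* lower, *Clock* higher), where 45.8% of all genes were called. In LepK against IgGK it called 0, where 13.2% of all genes were called and 7 of the 10 had an unadjusted p under 0.05. DESeq2, on its own size factors, called 3 there, against 11.9% of all genes. Relative to the median of all genes, each of the 10 lay on the same side under either scaling in each comparison. A change of scaling shifts all genes of a comparison and their median nearly alike. This outcome was therefore close to fixed in advance and does not show which scaling is right.

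**Figure D3:**
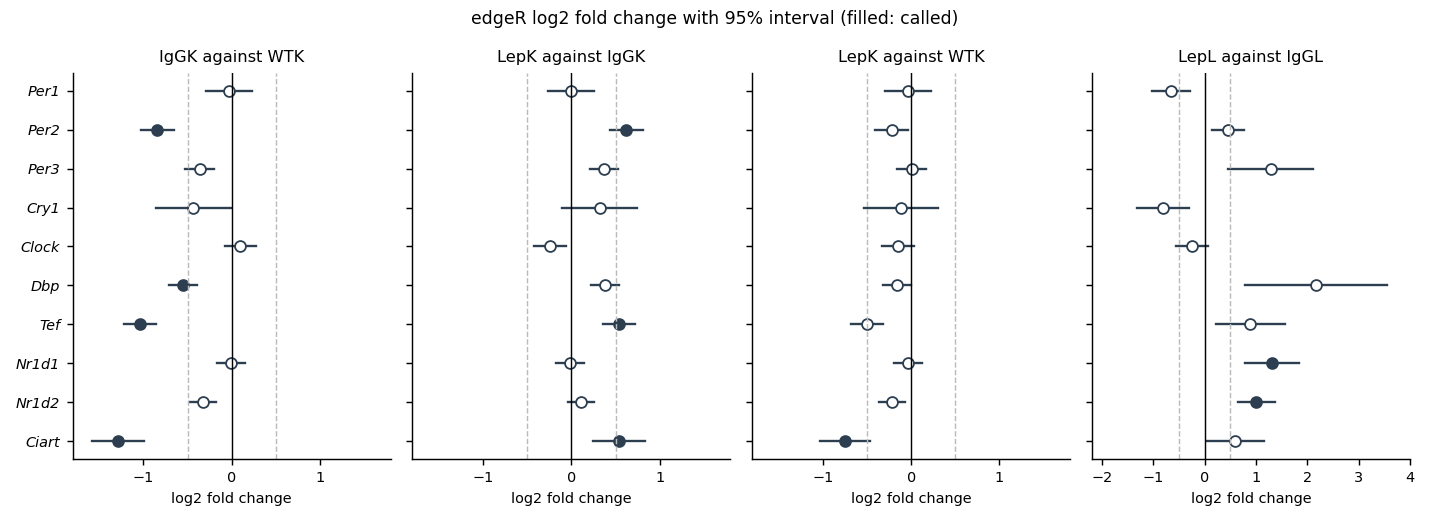
Log2 fold change (horizontal axis) of the 10 clock genes in 4 comparisons with the 95% interval from edgeR; filled points were called, dashed lines mark the fold threshold of 0.5, and the lung panel has a wider axis. In lung the interval of *Dbp* ran from 0.79 to 3.56, while in kidney that of *Nr1d1* ran from -0.17 to 0.15 in IgGK against WTK.

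Other measures moved with the kidney groups. Proximal tubule markers (12 of 12 tested, none at 0) summed to between 52279 and 54330 CPM in WTK, 13045 and 20219 in IgGK and 28052 and 37692 in LepK, and fibroblast markers (10 of 10) to between 229 and 294, 1506 and 1715, and 576 and 926. Macrophage markers (10 of 10) summed to between 203 and 234 CPM in WTK, 1825 and 2330 in IgGK and 646 and 970 in LepK. Distal nephron and collecting duct markers (10 of 10) summed to between 4284 and 4309 CPM in WTK, 2966 and 3486 in IgGK and 4287 and 4674 in LepK. Of the 12 glucocorticoid-responsive genes, 1 was called higher (*Ddit4*, 21.4 to 24.7 CPM in WTK and 36.4 to 50.1 in IgGK) and 4 lower in IgGK against WTK, among them *Hsd11b1*, which regenerates active glucocorticoid (239 to 326 CPM in WTK and 29.5 to 43.9 in IgGK), and *Fkbp5* (120 to 136 and 69.3 to 80.4). In LepK against IgGK, *Hsd11b1* alone of the 12 was called (higher, log2 fold change 0.997). In bulk tissue, fewer cells of a type and less RNA per cell cannot be told apart, and the part of these shifts in the clock gene values was not tested. IgGK replicate 3, which lacks the high adrenal cortex markers, was also fitted as the only IgGK library. The log2 fold changes against WTK were then -0.73 for *Per2*, -0.58 for *Dbp*, -0.93 for *Tef* and -1.27 for *Ciart*. LepK against that library had log2 fold changes of 0.52 for *Per2*, 0.44 for *Tef* and 0.53 for *Ciart*. The lone library was assumed to vary like the other groups, so only effect sizes are given. Without IgGK replicate 2 alone, 3 genes were called lower against WTK, where 32.9% of all genes were called in either direction. In LepK against IgGK 2 were then called higher, where 6.6% of all genes were called.

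The partners of the clock were read from a list of 16 genes. In IgGK against WTK, 5 of them were called higher and 5 lower, where 21.7% of all genes were called higher and 15.6% lower. Higher were *Arntl*, which encodes BMAL1 (log2 fold change 1.27, adjusted p = 0.0151), its paralog *Arntl2* (2.17), the D-box repressor *Nfil3* (0.84), the repressor *Bhlhe41* (0.82) and the kinase *Csnk1e* (1.11). Among those lower were *Hlf* (-1.57), the cryptochrome *Cry2* (-0.53), the REV-ERB competitor *Rora* (-0.60) and *Fbxl21* (-1.46), a ubiquitin ligase subunit. *Arntl* was scarce in kidney, with 0.592 to 1.77 CPM in WTK, 2.40 to 4.09 in IgGK and 1.31 to 2.18 in LepK. In LepK against IgGK, 2 of the 16 were called higher, *Hlf* (0.77) among them, and none lower, where 4.38% of all genes were called higher. Of 15 further genes under clock control, 1 was called higher and 8 lower in IgGK against WTK, set against the same shares of all genes, among them the deubiquitinase *Usp2* (-1.11), the NAD synthesis enzyme *Nampt* (-0.73), the P450 reductase *Por* (-1.30) and the sodium-proton exchanger *Slc9a3* (-1.54). *Usp2* (0.76) and the epithelial sodium channel subunit *Scnn1a* (0.65) were called higher in LepK against IgGK.

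The third comparison asked what LepAb did to the clock genes in the bleomycin lung. The genes split by direction: the PAR-domain factors, the REV-ERB receptors, *Per2*, *Per3* and *Ciart* had positive log2 fold changes in LepL against IgGL, and *Per1*, *Cry1* and *Clock* negative ones. Only *Nr1d1* and *Nr1d2* were called, both higher. These 2 of 10 stand against 4.14% of all 19617 genes called and 1.78% called higher. The LepL libraries lay wholly above the IgGL libraries for 4 genes and wholly below them for 2, while 33.3% of all genes had no overlap. The median log2 fold change was 0.74 over the 10 genes and 0.0033 over all genes.

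*Nr1d1* had 51.6, 32.1 and 38.0 CPM in IgGL and 69.6, 106 and 127 in LepL. The groups did not overlap, and the log2 fold change was 1.31 with a standard error of 0.24 (adjusted p = 0.0337 from edgeR). *Nr1d2* had 102, 75.7 and 74.7 CPM in IgGL and 145, 170 and 194 in LepL, again with no overlap (log2 fold change 1.01, adjusted p = 0.0327, standard error 0.16). LepL was thus higher 2.49-fold for *Nr1d1* and 2.01-fold for *Nr1d2*.

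*Dbp* showed the widest range of any of the 10, with 28.3, 8.16 and 3.96 CPM in IgGL and 36.8, 64.6 and 81.6 in LepL. The IgGL libraries alone differed 7.15-fold from lowest to highest. The groups did not overlap, yet the log2 fold change of 2.17 had a standard error of 0.61 and did not pass (adjusted p = 0.0701 from edgeR). *Per3* was alike, with 68.0, 36.4 and 20.2 CPM in IgGL and 81.7, 105 and 118 in LepL (log2 fold change 1.29, adjusted p = 0.0706). *Tef* had 271, 189 and 113 CPM in IgGL and 256, 410 and 395 in LepL. IgGL replicate 1 exceeded LepL replicate 1, so the groups overlapped, and the log2 fold change of 0.89 had an adjusted p of 0.101 from edgeR.

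*Ciart* and *Per2* overlapped in the same way. *Ciart* had 14.9, 9.47 and 7.82 CPM in IgGL and 14.8, 14.8 and 19.1 in LepL (log2 fold change 0.60, adjusted p = 0.157 from edgeR), and *Per2* had 61.6, 53.0 and 50.1 in IgGL and 61.2, 83.8 and 80.9 in LepL (0.46, adjusted p = 0.0844). In the other direction, *Per1* had 150, 194 and 218 CPM in IgGL and 113, 139 and 105 in LepL (log2 fold change -0.66, adjusted p = 0.0533 from edgeR). *Cry1* had 22.5, 29.4 and 41.1 CPM in IgGL and 16.2, 21.3 and 15.6 in LepL (-0.81, adjusted p = 0.0679), and both genes lay lower in every LepL library than in any IgGL library. *Clock* had 69.1, 99.9 and 92.3 CPM in IgGL and 70.8, 78.2 and 70.7 in LepL, which overlapped (-0.25, adjusted p = 0.281).

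How many genes passed in lung depended on single libraries. IgGL replicate 1 lay nearest to LepL: it was highest of its group for each of the 7 genes that were higher in LepL and lowest for each of the 3 that were lower. LepL replicate 1 was the lowest of its group for those same 7 genes. Without IgGL replicate 1, edgeR called 9 of the 10 (all but *Clock*), with *Dbp* at a log2 fold change of 3.32, *Per3* at 1.84 and *Per1* at -0.80, and 17.3% of all genes were then called. Without any other single lung library, 0 of the 10 were called and between 0 and 22 of all genes were, although 7 to 9 of the 10 kept an unadjusted p under 0.05. DESeq2 on all 6 libraries called 5 (*Per1*, *Cry1*, *Tef*, *Nr1d1* and *Nr1d2*), and 12% of all genes. Each of the 10 kept its direction in every lung fit tried.

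**Figure D4:**
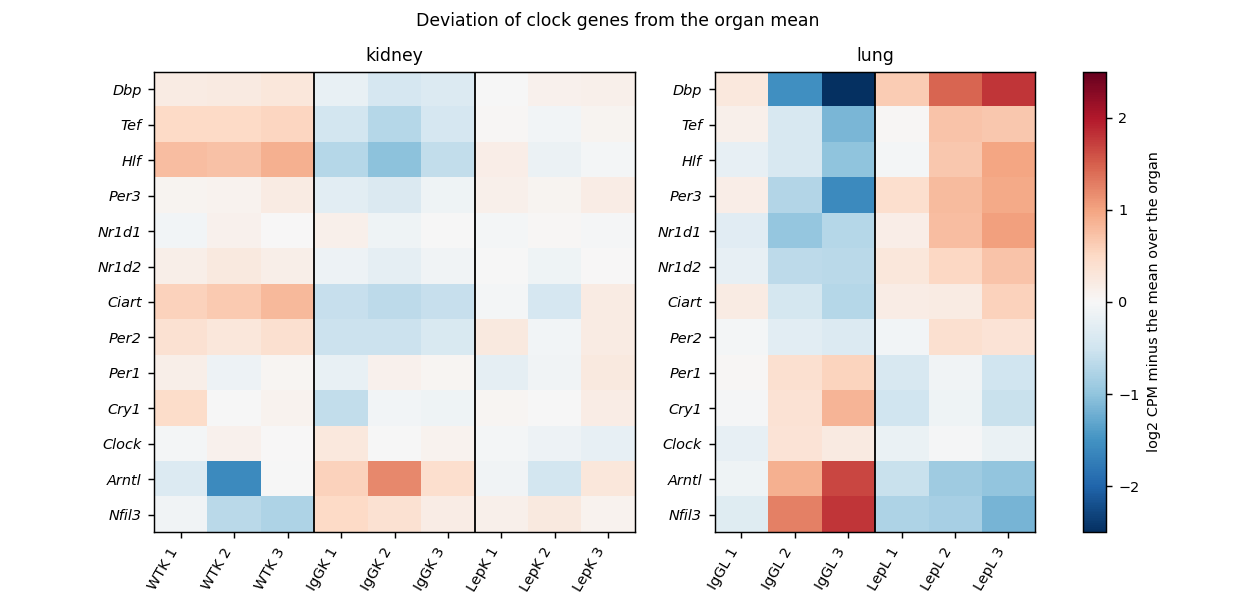
Log2 CPM minus the mean over the libraries of the organ (color) for the 10 clock genes with *Hlf*, *Arntl* and *Nfil3*, in 9 kidney and 6 lung libraries. In lung, *Dbp* and *Arntl* took opposite signs in each library, with IgGL 3 (3.96 against 31.7 CPM) and LepL 3 (81.6 against 5.06 CPM) at the ends.

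The partners in lung stood opposite to the output genes. *Arntl*, which the REV-ERB receptors repress, had 9.22, 18.5 and 31.7 CPM in IgGL and 6.76, 5.37 and 5.06 in LepL, a fall by 1.79 on the log2 scale (adjusted p = 0.0433 from edgeR). *Nfil3*, which competes with DBP at D-boxes, had 15.8, 47.0 and 67.0 CPM in IgGL and 11.5, 11.01 and 8.79 in LepL, a fall by 2.05 (adjusted p = 0.0398). Both had IgGL replicate 1 lowest of its group. They were the only called genes of the 15 partners tested in lung, where 4.14% of all genes were called. Of 14 clock-controlled genes tested, *Sgk1* alone was called (-1.44). *Dbp* counts per *Arntl* count were 3.07, 0.441 and 0.125 in IgGL and 5.44, 12.02 and 16.1 in LepL, and in kidney 88.5 to 252 in WTK, 23.4 to 42.2 in IgGK and 63.9 to 106 in LepK.

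Other measures moved with the lung groups and libraries. Of 12 glucocorticoid-responsive genes, 5 were called lower in LepL and none higher, where 2.36% of all genes were called lower: the FKBP family member *Fkbp5* (159, 292 and 280 CPM in IgGL against 55.3, 91.8 and 41.3 in LepL, log2 fold change -1.96), the stress gene *Ddit4* (-1.75), the metallothioneins *Mt1* (-2.16) and *Mt2* (-2.92), and *Sgk1*, which is also on the list of clock-controlled genes. *Mt2* was scarce, with 1.72 to 6.97 CPM in IgGL and 0.378 to 1.02 in LepL. *Fkbp5*, *Ddit4*, *Mt1*, *Mt2* and *Sgk1* each had IgGL replicate 1 lowest of its group. Skeletal muscle markers (6 of 6 tested, none at 0) summed to 761, 422 and 217 CPM in IgGL and 798, 1418 and 1811 in LepL. These sums had the same order of libraries as *Dbp*, although not each marker kept it. Of the 6 markers, 5 had positive log2 fold changes in LepL against IgGL and 1 a negative one. Alveolar type 2 markers summed to 12786, 8608 and 6785 CPM in IgGL and 18407, 21909 and 25123 in LepL, also in that order, and fibroblast markers summed to 7969 to 9042 in IgGL and 3697 to 4957 in LepL. The part of these shifts in the clock gene values was not tested.

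The antibody effects in the organs were compared directly, in a fit of the 12 libraries from injured organs. The effect differed for 3 of the 10 genes, against 6.66% of all 21488 genes tested. *Nr1d1* (kidney minus lung -1.31 on the log2 scale, adjusted p = 0.0196 from edgeR) and *Nr1d2* (-0.87, adjusted p = 0.0207) were higher with LepAb in lung and had log2 fold changes of -0.02 and 0.11 in kidney. *Cry1* differed the other way (1.16, adjusted p = 0.0408 from edgeR), with 0.32 in kidney and -0.81 in lung, neither of them called. With each library left out in turn, *Cry1* lost its call in 10 of 12 fits, *Nr1d1* in 3 and *Nr1d2* in 2. For *Dbp* the difference was -1.76 with a 95% interval from -3.19 to -0.32 and did not pass (adjusted p = 0.119). *Tef*, *Per2* and *Ciart*, called in the kidney and not in the lung, had differences of -0.32, 0.20 and -0.03 that did not pass, with intervals that include 0. Without IgGL replicate 1 the count was 6, against 14.9% of all genes. It was 0 in edgeR without IgGL replicate 2 and without LepL replicate 3. In these fits 1.58% and 1.72% of all genes were called, and 4 of the 10 had an unadjusted p under 0.05. DESeq2 on all 12 libraries called 4, against 11.6% of all genes.

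The spread between replicates differed by organ. Across the 10 genes, the median coefficient of variation was 5.19% in WTK, 8.64% in IgGK and 4.96% in LepK, below the 10.6%, 10.8% and 12.8% over all genes tested. In lung it was 27.6% in IgGL and 17.0% in LepL, above the 17.9% and 12.5% over all genes. The 10 genes and all genes were not matched for level in either organ. *Dbp* was the extreme, with 96.6% in IgGL against 8.54% in IgGK. *Per2* had the lowest value in IgGL, at 10.9%, and *Clock* the lowest in LepL, at 5.82%.

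The genes most like *Dbp* were named from the Pearson correlation of log2 CPM, which describes libraries that share group, depth and organ. Over the 6 lung libraries they were *Tmem50b* (r = 0.999), *Tspan13*, *Klhl31*, *Ces1d* and *Casq1* (r = 0.998), of which *Casq1* encodes the calcium store protein of skeletal muscle and *Klhl31* is also known from muscle. *Per3* ranked 16th of 19616 (r = 0.996), *Tef* 344th and *Ciart* 384th. *Arntl* was 18th from the bottom (r = -0.995) and *Nfil3* 129th from the bottom (r = -0.987). With 6 libraries the top 1% of genes begins at r = 0.982, so a high r by itself does not set a gene apart. *Per3* lay above that value, and *Tef* (r = 0.9735) and *Ciart* (r = 0.972) lay below it. Over the 9 kidney libraries the 5 genes were *C1d* (r = 0.986), *Aktip*, *Gm53064*, *Ugt1a6a* and *Gm37824*, and *Tef* ranked 129th of 19592 (r = 0.948). *Per1* had r = 0.02 with *Dbp* in kidney and -0.92 in lung.

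Positions are those of the deposited table, whose build it does not name. *Dbp* (ENSMUSG00000059824) lies on chromosome 7 from 45354512 to 45359627, *Tef* (ENSMUSG00000022389) on chromosome 15 from 81686622 to 81711064, *Nr1d1* (ENSMUSG00000020889) on chromosome 11 from 98658758 to 98666159, *Nr1d2* (ENSMUSG00000021775) on chromosome 14 from 4230569 to 4265642 and *Ciart* (ENSMUSG00000038550) on chromosome 3 from 95785815 to 95789563. The libraries keep no strand, so reads where 2 genes overlap cannot be told apart. *Nr1d1* shares 1075 bases with *Thra* on the opposite strand, which had 55.9 to 75.2 CPM in lung and a log2 fold change of 0.01 in LepL against IgGL. *Dbp* shares 737 bases with *Sphk2*, which had -0.06 there, and *Per3* lies wholly within *Camta1*, which had -0.0031. *Tef* shares 193 bases with the non-coding *Gm17597*, which at up to 2.45 CPM followed it in kidney (-1.52 in IgGK against WTK, 1.25 in LepK against IgGK, both called). All 3749 bases of *Ciart* lie within the non-coding *C920021L13Rik*, which had 4.42 to 11.7 CPM in lung and was at 0.89 on the log2 scale in LepL against IgGL (adjusted p = 0.0809 from edgeR). In kidney *C920021L13Rik* had 4.50 to 6.53 CPM in WTK, 4.52 to 6.10 in IgGK and 5.60 to 7.94 in LepK. Its part in the *Ciart* counts was not tested. *Clock* overlaps the pseudogene *Ube2n-ps1* and *Gm43658*, which had medians of 29 and 0 counts.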

How the data were processed

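RNA was extracted with a column kit, and poly(A)-selected, non-directional libraries were made per the labels. The authors deposited 1 table with whole-number read counts per gene and library and with FPKM values, which they scaled to gene length and library. The submitters' processing notes name builds GRCm39 and mm39 and DESeq2, with no role or version, and the aligner and counting tool are not given in the sources used here. The table's group means, fold changes and p-values are the authors' own results and were not used. Libraries were grouped by their title, tissue and treatment labels, which a further line of the sample descriptions contradicts for some libraries.

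The 10 genes and all lists were chosen with earlier results of these data known. All genes were tested together: edgeR 4.0.16 (R 4.3.3) with filterByExpr (minimum count 10, minimum total count 15), TMM factors within each organ and quasi-likelihood tests, for 9 kidney libraries (6 residual degrees of freedom), 6 lung libraries (4) and 12 libraries of injured organs apart. Benjamini-Hochberg adjustment ran over all genes tested. The standard error is the log2 fold change over the square root of F. CPM values of kidney and lung were normalized apart. The procedure was tested on simulated data. Replicates differed by a chi-square of 7.15 to 98.6 per gene, above sampling noise. Named genes were the 10, genes overlapping them, list genes called in at least 1 comparison and the 5 genes most correlated with *Dbp* in each organ. The values of 1 gene counted in a list are not reported here. Alternatives were other scaling, DESeq2 1.42.0, no filter, other fold thresholds, other sets of libraries in the fit, each library left out and a replicate block. A fit with a single IgGK library was added after the data were seen.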

Additional observations from a re-analysis of the deposited data

Results flagged for a closer look

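The effect of LepAb was LepK against IgGK in kidney and LepL against IgGL in lung. By the test of the difference itself in edgeR on 12 libraries, it differed between the organs for 3 of the 10 clock genes. The same test called 6 genes of the related lists and 6.66% of all 21488 genes. The lists of partners, clock-controlled and glucocorticoid-responsive genes held 16, 15 and 12 tested genes, with 1, 3 and 3 called (*Sgk1* on both of the last). Of the 10, 0 were called without IgGL replicate 2 and 0 without LepL replicate 3, against 1.58% and 1.72% of all genes. *Cry1* lost its call in 10 of 12 fits with 1 library left out. As kidney minus lung on the log2 scale, the difference was 1.16 for *Cry1* (standard error 0.31, adjusted p = 0.0408), -1.31 for *Nr1d1* (0.27, adjusted p = 0.0196) and -0.87 for *Nr1d2* (0.19, adjusted p = 0.0207). Among the related genes it was 1.88 for *Nfil3* (adjusted p = 0.0447), 0.54 for *Nampt* (0.0219), 1.66 for *Sgk1* (0.0238), 1.15 for *Scnn1a* (0.0152), 2.14 for *Fkbp5* (0.0162) and 2.33 for *Mt1* (0.0215). *Nfil3*, *Sgk1*, *Fkbp5* and *Mt1* had log2 fold changes of -2.05, -1.44, -1.96 and -2.16 in lung and of -0.20, 0.19, 0.15 and 0.13 in kidney. *Scnn1a* had 0.65 in kidney and -0.47 in lung, and *Nampt* 0.42 and -0.09. The organs also differ in injury, length of treatment and day of collection, which cannot be told apart from the organ.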

How the results depend on the processing

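The limits are few libraries and a narrow margin in lung. Of 810 values of single genes under the alternatives, 684 kept their direction and side of the thresholds, 46 lost a call, 35 gained one and 45 changed sign. The cause of each change was not tested, apart from the shift of the median of all genes under library-size scaling.

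The count of called genes moved by over 1.5 times under these alternatives, with the replicate block given apart. Counts from the fit with a single IgGK library are left out. In IgGK against WTK they numbered 2 at an absolute log2 fold change over 1, against 21.9% of all genes. In LepK against IgGK they numbered 0 with library size alone (13.2% of all genes called) and 0 over a log2 fold change of 1 (3.08%). They numbered 5 there with no fold threshold (20.5%) and 1 with all 15 libraries fitted together (7.79%). In LepK against WTK they numbered 2 with RLE factors (22.5% of all genes called), 2 with DESeq2 (23.8%) and 0 with library size alone (27%). They numbered 0 there over a log2 fold change of 1 (10.9%) and 3 with no fold threshold (38.6%). In LepL against IgGL they numbered 5 with DESeq2, 8 with no filter and 7 with all 15 libraries, against 12%, 7.66% and 10.6% of all genes. For kidney minus lung they numbered 6 with no filter, against 7.02% of all genes. With each library left out, the counts ran from 3 to 4, from 2 to 3, from 1 to 2, from 0 to 9 and from 0 to 6 in these 5 comparisons. Of all genes, 32.9% to 36.8%, 6.44% to 11.2%, 18% to 24.5%, 0% to 17.3% and 1.58% to 14.9% were called in those fits.

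Replicate numbers recur across groups, and same-numbered libraries deviated together weakly at most (correlations -0.06 to 0.18, 2 of 12 over 0.1, own number best in 10 of 24 checks). The 2 were between IgGK and LepK, for replicate 1 (0.1824) and replicate 2 (0.165). Whether equal numbers mark a shared batch or order of collection is not settled by these checks. With the replicate block, 4, 3, 2, 0 and 3 of the 10 genes were called in the 5 comparisons (in lung 9 had an unadjusted p under 0.05). Of all genes, 36.9%, 10.8%, 22.5%, 0.0204% and 4.55% were called in these fits.

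With library size alone, signs changed in IgGK against WTK for *Per1* (0.41), *Per3* (0.076), *Cry1* (0.010), *Nr1d1* (0.43) and *Nr1d2* (0.12), in LepK against IgGK for *Nr1d2* (-0.070), in LepK against WTK for *Per1* (0.23), *Per2* (0.039), *Cry1* (0.15), *Clock* (0.11), *Dbp* (0.10), *Nr1d1* (0.23) and *Nr1d2* (0.045), and for kidney minus lung in *Per2* (-0.051) and *Clock* (-0.22). The median of all genes moved to 0.48, -0.19, 0.29 and -0.25 in these 4. Values near 0 changed sign elsewhere: *Per3* in LepK against WTK (-0.00041 with RLE factors, -0.00055 with DESeq2), *Nr1d1* in IgGK against WTK with only those groups fitted (0.0022), and, with a single IgGK library, *Per1* against WTK (0.027) and *Nr1d1* in LepK against IgGK (0.0026). Leaving out libraries moved *Per1* from -0.10 to 0.051 (IgGK against WTK), from -0.15 to 0.096 (LepK against IgGK) and from -0.18 to 0.067 (LepK against WTK), and *Nr1d1* from -0.077 to 0.048, from -0.070 to 0.055 and from -0.070 to 0.019. It moved *Per3* from -0.023 to 0.048 and *Cry1* from -0.20 to 0.043 in LepK against WTK, and *Clock* from -0.076 to 0.18 and *Ciart* from -0.34 to 0.13 for kidney minus lung. By Spearman's rho, 4 of the 5 genes most like *Dbp* in kidney and 5 of 5 in lung were the same.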
